A study of Mus musculus with 2 samples.

Results

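The expression of glycolysis enzymes and hypoxia response genes was followed over single cells of cultured embryonic mouse cortex. The list held 10 genes, 6 of glycolysis and 4 of the hypoxia response, chosen by name. The glycolysis enzymes Ldha, Pgk1, Pkm and Eno1 and the hypoxia response genes Bnip3, Slc2a1 and Pdk1 were found by their Ensembl identifiers, which makes 7 genes of the 10666 in the table. The other 3, Aldoa, Tpi1 and Vegfa, were not analysed here. The samples were 2 replicate cultures of wild-type cortical neurospheres, free-floating spheres of neural stem and progenitor cells, from the dorsal telencephalon of C57BL/6 mice at embryonic day 14.5. Both were grown with EGF and bFGF in medium with B27 without retinoic acid, N2 and added glucose, and both were untreated. The oxygen level was not a variable of the study, and spheres were passaged and grown until dark centres appeared before they were dissociated. Of the 12805 cells, 5748 came from culture 1 and 7057 from culture 2, and there was 1 condition, so the difference between the cultures is the spread between replicates and no group was tested against another.

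Glycolysis splits glucose into pyruvate in the cytosol and yields ATP without oxygen. When oxygen is short, the transcription factor HIF1 is stabilised, binds a short DNA motif and raises genes for glucose uptake, most glycolysis enzymes, and proteins that keep pyruvate out of mitochondria or remove mitochondria. Proliferating neural progenitors are known to rely strongly on glycolysis, and neurons that form from them on mitochondrial respiration. Among the genes described, Slc2a1 encodes the glucose transporter GLUT1, Pgk1 phosphoglycerate kinase, Eno1 enolase, Pkm the pyruvate kinase that makes pyruvate, and Ldha the lactate dehydrogenase subunit that turns pyruvate into lactate. Pdk1 encodes a kinase that switches off pyruvate dehydrogenase, and Bnip3 a mitochondrial outer membrane protein that marks mitochondria for removal.

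On GRCm38, Ldha lies on chromosome 7 at 46841475 to 46855627, Pgk1 on chromosome X at 106187100 to 106203699, Pkm on chromosome 9 at 59656368 to 59679375 and Eno1 on chromosome 4 at 150236721 to 150248879, all on the plus strand. Slc2a1, at 119108711 to 119137983 of chromosome 4, and Pdk1, at 71873224 to 71903858 of chromosome 2, are on the plus strand too, and Bnip3 is on the minus strand of chromosome 7 at 138890836 to 138909519. RefSeq promoter windows on GRCm38.p6, from 250 bases before to 50 bases after a transcription start, were found for all 7 genes. The core of the HIF motif was searched as ACGTG or GCGTG on both strands. It was present in the first listed window of 6 of the 7 genes, Pkm being the exception, and in 43.8% of all 32851 windows. ACGTG alone, on either strand, was in the first window of 4 of the 7, namely Ldha, Pgk1, Bnip3 and Slc2a1, against 19.6% of all windows. Over all 12 listed windows of the 7 genes, 10 held either form (83.3%) and 5 held ACGTG (41.7%). The windows below are shown for Ldha and Eno1, the pair with the highest correlation in both cultures, for Pgk1, and for Bnip3, the hypoxia response gene detected in the most cells. Capitals mark the matches, and a CACGTG holds a match on each strand.
Ldha, chr7:46845554-46845853, plus strand: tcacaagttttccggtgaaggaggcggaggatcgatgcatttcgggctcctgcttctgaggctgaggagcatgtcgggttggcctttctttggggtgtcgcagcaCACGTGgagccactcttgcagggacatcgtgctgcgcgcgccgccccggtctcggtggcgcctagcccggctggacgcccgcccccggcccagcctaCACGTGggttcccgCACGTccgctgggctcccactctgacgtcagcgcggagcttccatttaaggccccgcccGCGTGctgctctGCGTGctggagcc
Eno1, chr4:150236458-150236757, plus strand: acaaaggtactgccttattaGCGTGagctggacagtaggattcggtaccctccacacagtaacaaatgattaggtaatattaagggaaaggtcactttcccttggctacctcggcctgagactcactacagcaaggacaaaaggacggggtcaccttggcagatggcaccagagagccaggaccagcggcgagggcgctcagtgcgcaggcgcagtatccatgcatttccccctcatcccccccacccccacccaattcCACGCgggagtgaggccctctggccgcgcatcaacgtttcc
Pgk1, chrX:106186850-106187149, plus strand: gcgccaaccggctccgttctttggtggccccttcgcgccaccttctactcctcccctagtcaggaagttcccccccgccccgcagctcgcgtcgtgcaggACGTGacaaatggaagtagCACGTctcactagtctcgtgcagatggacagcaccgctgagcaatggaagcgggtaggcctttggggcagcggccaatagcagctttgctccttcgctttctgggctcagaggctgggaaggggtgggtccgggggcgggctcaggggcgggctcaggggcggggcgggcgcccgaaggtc
Bnip3, chr7:138909457-138909756, minus strand: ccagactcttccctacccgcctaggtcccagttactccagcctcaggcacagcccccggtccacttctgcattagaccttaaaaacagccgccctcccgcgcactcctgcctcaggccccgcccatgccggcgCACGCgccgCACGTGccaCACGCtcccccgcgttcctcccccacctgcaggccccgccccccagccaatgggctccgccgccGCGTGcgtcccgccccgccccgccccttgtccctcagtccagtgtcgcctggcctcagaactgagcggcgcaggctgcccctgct
The Ldha window held 7 matches and 2 CACGTG, the Bnip3 window 5 matches and 1 CACGTG, and the Pgk1 and Eno1 windows 2 matches each. A match is a run of letters and is not evidence of binding.

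The median depth was 19477 UMIs per cell in culture 1 and 14637 in culture 2. The 6 radial glia markers measured differed in their share of cells. Fabp7 was detected in 100% of cells of culture 1 and 99.96% of culture 2, and Vim in 99.2% and 99.9%. Nes was in 93.3% and 89.8%, Slc1a3 in 92.1% and 94.0%, Hes1 in 44.5% and 50.5%, and Pax6 in 21.1% and 23.1%. Olig2, of the oligodendrocyte lineage list, was in 97.3% and 91.9%. The cultures shared 48 cell barcodes. For 7177 genes in culture 1 and 7918 in culture 2, a step that belongs to the gene and the culture was resolved, such that values scaled by the depth of the cell are near whole multiples of it: of their low values, 93.1% in culture 1 and 93.5% in culture 2 lay within 0.1 of a whole number. The step differed by over 1.1-fold between the cultures in 61.9% of 7063 genes, and the methods do not describe it. A gene's deposited level is therefore read within a culture, and cultures are compared by the share of cells with a UMI and, where the step was resolved, by recovered UMIs per 10000. For Ldha and Eno1 the step was not resolved, with under 42% of low values near whole numbers in either culture, and no recovered UMIs are given for them.

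The 4 glycolysis enzymes were detected in nearly every cell of both cultures. Ldha was detected in 97.2% of cells in culture 1 and 99.1% in culture 2, and its mean log2(value + 1) was 3.32 ± 0.85 (SD over 5748 cells) and 3.15 ± 0.85 (SD over 7057 cells). Pgk1 was detected in 98.9% and 97.7% of cells, with means of 2.94 ± 0.66 and 2.68 ± 0.77. Pkm was detected in 99.9% and 99.4% of cells, with means of 3.90 ± 0.57 and 3.57 ± 0.68. Eno1 was detected in 98.5% and 99.3% of cells, with means of 4.09 ± 0.94 and 4.18 ± 0.77. In recovered UMIs per 10000, Pgk1 stood at 4.07 in culture 1 and 3.34 in culture 2, and Pkm at 8.48 and 6.25, so both were higher in culture 1. Ldha, Pgk1 and Eno1 have near-identical processed copies in the mouse genome, and how the counting split reads between copies was not tested.

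The hypoxia response genes were detected in a minority of cells. Bnip3 was detected in 25.5% of cells of culture 1 (95% exact binomial interval 24.3 to 26.6) and 16.6% of culture 2 (15.7 to 17.5), Slc2a1 in 16.1% (15.2 to 17.1) and 7.94% (7.32 to 8.59), and Pdk1 in 5.83% (5.24 to 6.47) and 5.21% (4.71 to 5.76). These intervals cover counting error only, and culture 1 was sequenced more deeply. At 10000 UMIs per cell, with 5395 cells of culture 1 and 6422 of culture 2, the expected shares were 13.5% and 11.1% for Bnip3, 8.53% and 5.25% for Slc2a1, and 4.19% and 4.46% for Pdk1. The higher share in culture 1 thus remained for Bnip3 and Slc2a1 at equal depth. The resolved step of Pdk1 was 0.515 and 0.507, against 0.935 and 1.13 for Bnip3 and 0.911 and 1.16 for Slc2a1. Whether a Pdk1 step stands for a whole UMI was not tested. Its expected shares are therefore not set against those of the other genes or between cultures. No cell type that should lack these genes was available to give a background share. With no hypoxia response gene detected in 59.9% of cells of culture 1 and 73.0% of culture 2, their values per cell are close to a record of single UMIs.

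**Figure D1:**
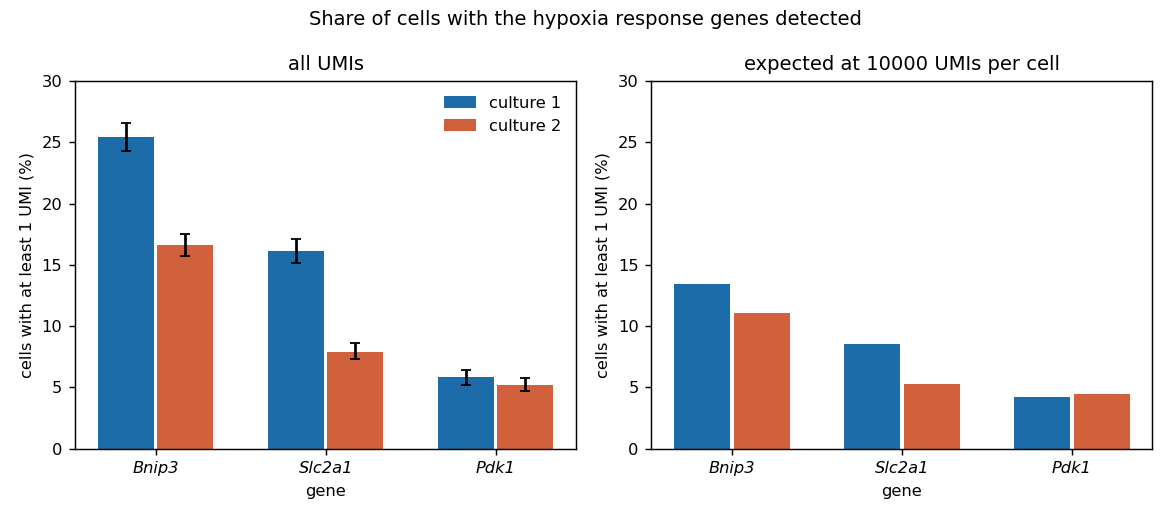
Share of cells with at least 1 UMI of Bnip3, Slc2a1 and Pdk1 (y axis, percent) in each culture, on the left with all UMIs and 95% exact binomial intervals, on the right the expectation at 10000 UMIs per cell, without intervals. The Bnip3 share is 25.5% with all UMIs and 13.5% at the common depth in culture 1, against 16.6% and 11.1% in culture 2, so the cultures come closer together.

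The series asks how expression runs along the cell cycle, so each gene was read along the deposited cell cycle position, an angle made from cell cycle genes that include none of the members. The replication gene Mcm6 had its highest mean between 0.5π and 0.75π in both cultures and the mitotic cyclin gene Ccnb1 between 1π and 1.25π. A fit of 2 harmonics of the position to log2(value + 1) explained at least 5% of the variance in both cultures for 0 of the 7 genes, where 4.01% of all 10666 genes passed (428 genes). Pkm had the highest R2 of the 7, at 0.0365 in culture 1 and 0.0371 in culture 2. Eno1 followed at 0.0232 and 0.0188, and Ldha stood at 0.0118 and 0.0102. The median of the lower R2 of the cultures was 0.00630 over the 7 genes, against 0.00183 over all genes and 0.00890 over the 483 other genes detected in at least 90% of cells of both cultures. The lower R2 of Pkm and Eno1 lay above 0.0160, the 90th percentile of all genes. With depth taken out first, the partial R2 of the position in culture 1 was 0.0543 for Eno1 and 0.0259 for Ldha, while in culture 2 it was 0.0148 and 0.00770, and 0 of 7 genes passed in both cultures.

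Pkm, Pgk1 and Ldha had their highest mean in the same eighth in both cultures, and that of Eno1 differed. Some of these maxima were close to ties. Ldha was highest between 1.5π and 1.75π, at 3.46 in 64 cells of culture 1 and 3.30 in 189 cells of culture 2. In culture 1 the standard error over cells was 0.12 there, and Ldha had 3.42 from 0.5π to 0.75π. Pkm was highest between 0.25π and 0.5π, with means of 3.99 and 3.70, and had 3.98 in the last eighth of culture 1. In the eighth from 1π to 1.25π, where Ccnb1 is highest, its means were 3.71 and 3.30. That was its lowest eighth in culture 2. In culture 1 its lowest mean was 3.60, from 1.25π to 1.5π in 85 cells. Eno1 had means of 3.84 and 3.98 in that eighth, its lowest in both cultures, against 4.26 and 4.23 in the eighth from 1.75π to 2π. Its first eighth was low in culture 1, at 4.02, and high in culture 2, at 4.28. In culture 2 Eno1 stood at 4.298 in its highest eighth, from 1.5π to 1.75π, and at 4.294 from 0.25π to 0.5π. Pgk1 was lowest from 1π as well, at 2.84 and 2.58, against 3.005 and 2.75. Ldha was lowest there in culture 2, at 2.995, but in culture 1 its lowest mean, 3.14, lay between 0 and 0.25π. In the eighth before 1π, Ldha stood at 3.42 in culture 1 and at 3.06 in culture 2. The step from the eighth at 1π to the last eighth was 0.27 and 0.33 for Pkm, 0.42 and 0.25 for Eno1, 0.17 and 0.16 for Pgk1 and 0.14 and 0.17 for Ldha, which compares with SDs over cells between 0.57 and 0.94. The mean log2 total UMIs of the cells moved too, at 14.4 and 14.1 in the eighth from 1π and 14.1 and 13.8 in the last, and the part of depth in these changes was not tested beyond the fit with a depth term.

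Of the hypoxia response genes, Bnip3 had means of 0.288 and 0.230 in the last eighth and 0.161 and 0.134 in the eighth from 1π. Slc2a1 moved by 0.0209 in culture 1 and by -0.0148 in culture 2 between the same eighths, so its direction differed between cultures. Pdk1 moved by 0.0197 and 0.0182. By the deposited Seurat stages, Pkm had means of 3.97 in G1, 3.95 in S and 3.74 in G2M cells of culture 1, and 3.63, 3.67 and 3.34 in culture 2. Bnip3 had means of 0.288, 0.235 and 0.180 in the same order in culture 1 and 0.234, 0.203 and 0.149 in culture 2. The G2M cells were thus lowest for both genes in both cultures. By the deposited SchwabeCC stages, which part G2 from G2.M, this held for G2.M and not for G2. In culture 1 Bnip3 was at 0.222 in G2.M, close to 0.224 in M.G1, and highest in G2, at 0.257. Pkm stood at 3.94 in G2 and in S cells of culture 1 and at 3.80 in G2.M.

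**Figure D2:**
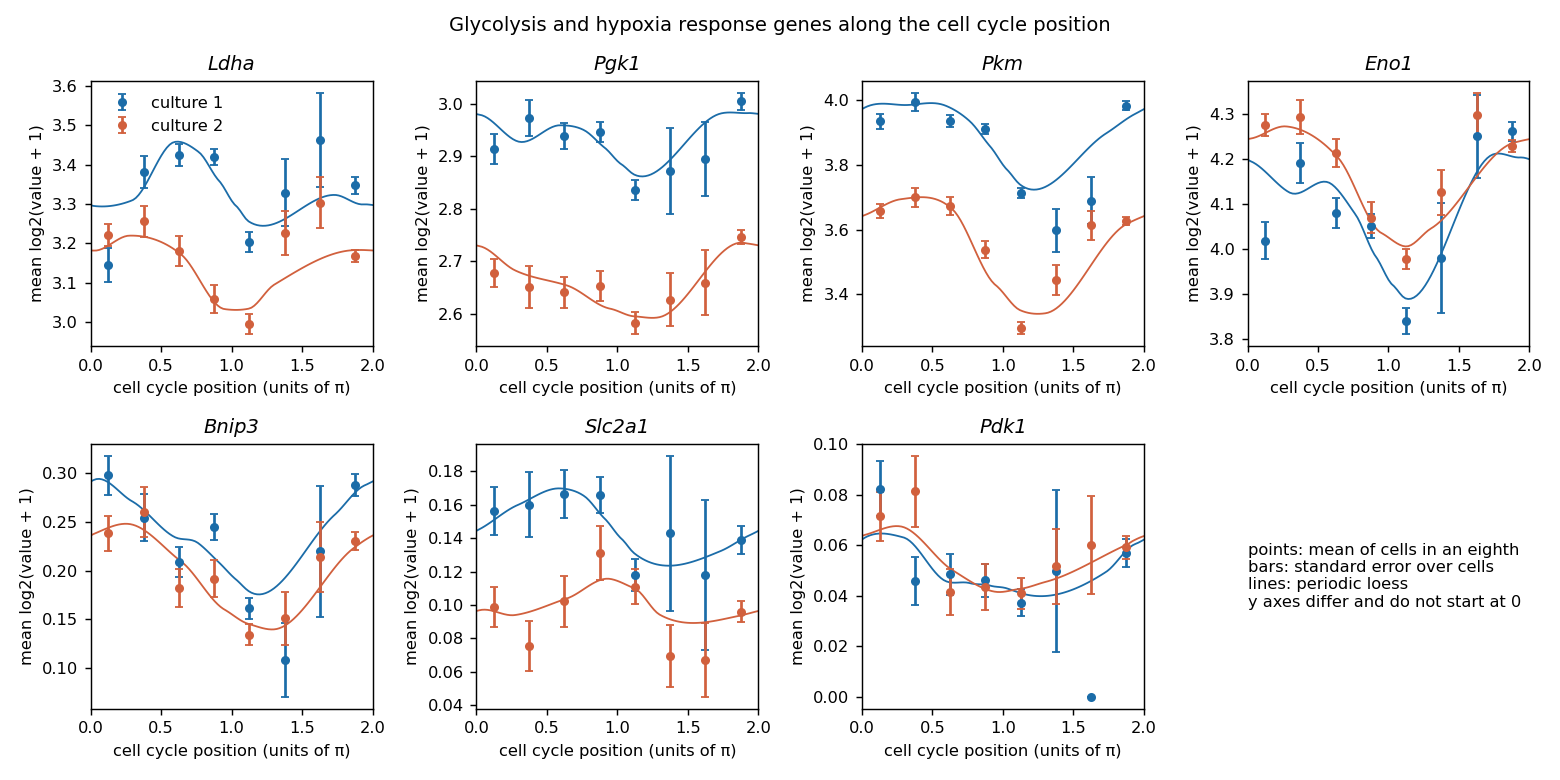
Mean log2(value + 1) of the 7 genes (y axis) along the cell cycle position in units of π (x axis) for culture 1 (blue) and culture 2 (orange). Points are means of the cells in an eighth of the circle with standard errors over cells, lines are periodic loess fits, and the y axes do not start at 0. Pkm and Eno1 dip after 1π in both cultures; the eighths from 1.25π to 1.75π of culture 1 hold 85 and 64 cells.

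To ask whether the genes rise and fall together from cell to cell, each was correlated with the mean z score of the other 6 within each culture. All 4 glycolysis enzymes reached Pearson r of 0.2 in both cultures, and 0 of the 3 hypoxia response genes did, where 0.0938% of the 10659 other genes did so with the mean of the 7 (10 genes). The enzymes are among the most widely detected genes, so the closer background is the same 483 widely detected genes, of which 2.07% passed (the same 10). Ldha had r of 0.344 in culture 1 and 0.289 in culture 2, Eno1 0.336 and 0.326, Pkm 0.247 and 0.281, and Pgk1 0.216 and 0.212. These are descriptions over 5748 and 7057 cells that share a library, and no p is given. Values followed depth in culture 1, where Ldha had r of 0.391 with log2 total UMIs and Eno1 0.296, but not in culture 2, with -0.0341 and 0.0102. With depth and position taken out, r was 0.196 and 0.243 for Ldha, 0.193 and 0.267 for Eno1, 0.128 and 0.224 for Pkm, and 0.118 and 0.174 for Pgk1. By that measure 0 of 7 genes reached 0.2 in both cultures, while 3 enzymes did so in culture 2, and 4 of the other genes did in both.

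Between single enzymes, all 6 pairs were positive in both cultures, with a mean r of 0.232 and 0.243, or 0.133 and 0.20 with depth and position taken out. Ldha with Eno1 was the highest pair in both, at 0.392 and 0.318, followed in culture 2 by Pkm with Eno1 at 0.309. The lowest pairs were Pgk1 with Pkm in culture 1, at 0.163, and Ldha with Pgk1 in culture 2, at 0.161. Among all 116403 pairs of the 483 widely detected genes, the median r was 0.0127 in culture 1 and 0.00792 in culture 2, and 7.63% and 4.10% of pairs reached the lowest enzyme pair. Pgk1 was the enzyme least tied to the others.

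The hypoxia response genes had weak correlations with the enzymes, higher in culture 1 than in culture 2. Bnip3 had r of 0.0703 and 0.0236 with the other 6 genes, Slc2a1 0.0577 and -0.00533, and Pdk1 0.0457 and 0.0221. The 3 pairs among them had a mean r of 0.0119 in culture 1 and -0.00265 in culture 2, and values as low as these are no finding in sparse counts. The 12 pairs of an enzyme with a hypoxia response gene had a mean r of 0.0385 and 0.0114, with 12 positive in culture 1 and 10 in culture 2. The mean z scores of the enzymes and of the hypoxia response genes had r of 0.101 in culture 1 and 0.0302 in culture 2, and 0.0336 and 0.0190 with depth and position taken out. In culture 1, mean Ldha was 3.23 in the 3445 cells with none of Bnip3, Slc2a1 and Pdk1 detected, 3.43 in the 1907 with 1, and 3.59 in the 371 with 2, while the median depth of those cells went from 18006 to 20946 and 23375 UMIs. In culture 2, Ldha was 3.15 in 5153 cells with none, 3.17 in 1714 with 1 and 3.14 in 185 with 2, at 14224, 15482 and 17313 UMIs. The course seen in culture 1 was therefore not seen in culture 2.

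**Figure D3:**
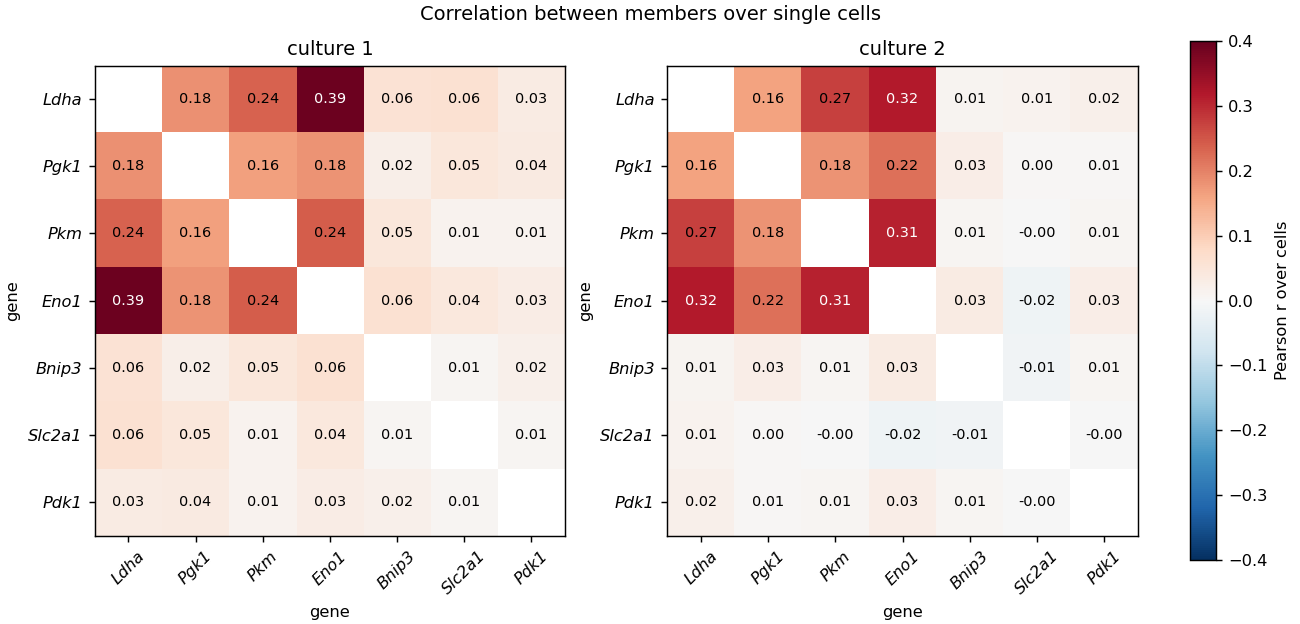
Pearson r over cells between each pair of the 7 genes in culture 1 (5748 cells, left) and culture 2 (7057 cells, right), on a colour scale from -0.4 to 0.4. The 6 pairs among Ldha, Pgk1, Pkm and Eno1 lie between 0.161 and 0.392, and every pair that includes Bnip3, Slc2a1 or Pdk1 lies below 0.07.

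Outside the members, the gene most like the enzymes was Atp5b, the catalytic beta subunit of mitochondrial ATP synthase, with r of 0.470 in culture 1 and 0.406 in culture 2 with the mean z score of the 4 enzymes. It was also the likest single gene outside the members for each of Ldha, Pgk1, Pkm and Eno1. By the lower r of the cultures, the next 9 genes were Prdx1, Cd81, Mdh1, Atp5a1, Txn1, Gpi1, Mdh2, Ptn and Uqcrc1. Prdx1 and Txn1, a peroxiredoxin and thioredoxin, had r of 0.339 and 0.385 and of 0.502 and 0.264. Mdh1 and Mdh2, the cytosolic and mitochondrial malate dehydrogenases, had r of 0.392 and 0.312 and of 0.379 and 0.248. By the higher r of the cultures, the lowest were the mitotic genes Cenpf, with -0.158 and -0.185, Tpx2 and Cenpe. With depth and position taken out, Cenpf stood at -0.0877 and -0.0645 and Atp5b at 0.344 and 0.338.

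For the gene lists that follow, the shares to read against are the 0.0938% of all other genes and the 2.07% of widely detected ones given above. Of 11 other glycolysis genes measured, 1 reached r of 0.2 with the mean of the 7 members in both cultures, Gpi1, the isomerase of glucose 6-phosphate, with 0.397 and 0.221. Ldhb, the lactate dehydrogenase subunit of oxidative tissues, had 0.201 and 0.125. The list median of the lower r was 0.00620, where all genes outside the members had a median of -0.0144 and the widely detected ones 0.00618. Of 16 subunits of the respiratory chain and ATP synthase, 3 passed, namely Uqcrc1, Atp5a1 and Atp5b, with a list median of 0.114. With depth and position taken out, Atp5b alone of these 4 kept 0.2 in both cultures, at 0.283 and 0.274, while Gpi1 had 0.212 and 0.171, Uqcrc1 0.1996 and 0.1599, and Atp5a1 0.191 and 0.175. None of 22 other hypoxia response genes, 7 genes of the HIF pathway, which include Hif1a with -0.00474 and -0.00817, or 11 genes that bring pyruvate to mitochondria passed. Phgdh, of the serine pathway, was the highest of the 6 integrated stress response genes, at 0.267 and 0.144, and 0 of the 6 passed. Neither of the 2 immediate early genes measured, Fosb and Dusp1, passed, and Dusp1 had 0.0481 and 0.0342. Of 9 proliferation genes 0 passed. Mki67, at -0.141 and -0.162, Ccnb1, Cdc20 and Birc5 had r of -0.1 or lower in both cultures. The share of all genes at that threshold was not counted. With depth and position taken out, r with the mean of the enzymes was -0.0759 and -0.0516 for Mki67 and -0.0351 and 0.0202 for Ccnb1. It was -0.0226 and 0.0537 for Cdc20 and -0.0512 and 0.0260 for Birc5, so of these 4 proliferation genes only Mki67 stayed negative in both cultures. Top2a, which missed the threshold of -0.1 in culture 1 at -0.0964, had -0.0660 and -0.106 by the same measure.

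No gene outside the members reached r of 0.1 in both cultures with the mean of Bnip3, Slc2a1 and Pdk1. The highest was Sparc, a secreted matrix protein, at 0.0608 and 0.0609, followed by Cdh13, Ndufv3, Mt3, Gabarap, S100a10, Ociad2, S100a6, Gng5 and Anxa2, and the lowest by the higher r were Hmgb1, Cdca8 and Cenpa. The likest single genes were Mt3, a metallothionein of the brain, for Bnip3, with 0.0957 and 0.0663, Gatad1 for Slc2a1, with 0.0532 and 0.0399, and Atp5j for Pdk1, with 0.0419 and 0.0448.

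**Figure D4:**
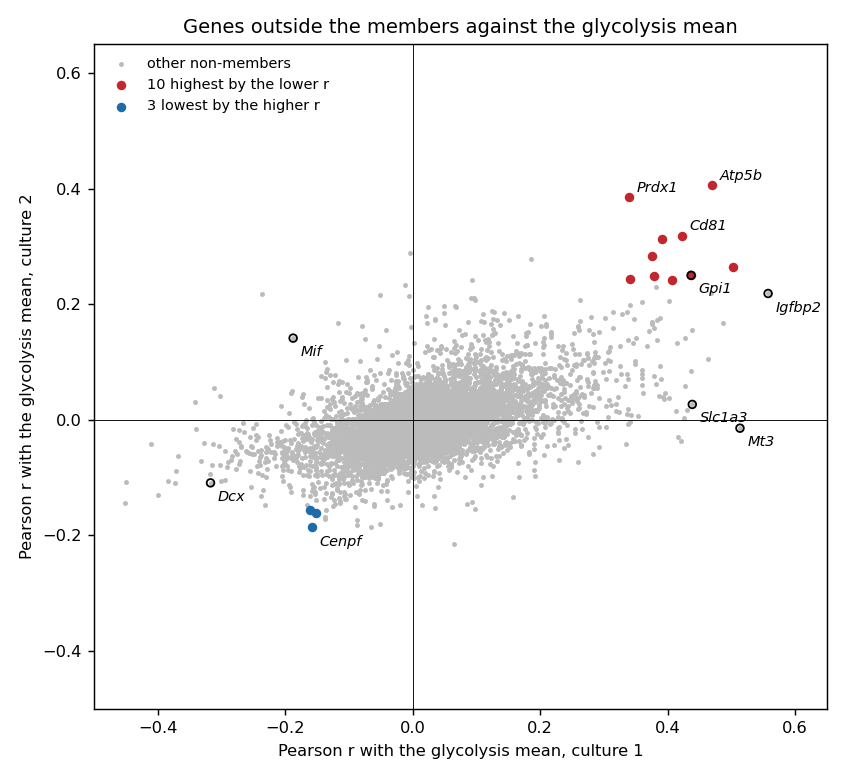
Pearson r over cells with the mean z score of Ldha, Pgk1, Pkm and Eno1 in culture 1 (x axis) and culture 2 (y axis) for each gene outside the members. Red points are the 10 genes with the highest lower r, blue points the 3 with the lowest higher r, and open circles genes picked after their values were seen; Atp5b stands at 0.470 and 0.406, and Slc1a3 and Mt3 are high in culture 1 alone.

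Some lineage markers moved with the enzymes in culture 1, with values nearer 0 in culture 2. Dcx, a marker of young neurons, had r of -0.317 and -0.109 with the mean of the enzymes, and Pdgfra, a marker of oligodendrocyte precursors, -0.241 and -0.0721. In the same oligodendrocyte lineage list, Sox10 had -0.197 and -0.0538, Cspg4 -0.103 and -0.0675, Olig2 -0.0738 and 0.0744, and Egfr 0.178 and -0.0317. The radial glia marker Slc1a3 had 0.438 in culture 1 and 0.0265 in culture 2, the widest range of the 6 in its list. Fabp7 had 0.283 and 0.0807, Hes1 0.207 and 0.0313, and Vim 0.191 and 0.133. Nes had 0.124 and 0.0472 and Pax6 0.00172 and -0.0364. Of the astrocyte markers, Aldh1l1 had 0.232 and 0.0236, Slc1a2 0.145 and -0.0403, and S100b -0.0807 and 0.0197. Of the 6 radial glia, 5 oligodendrocyte lineage, 3 astrocyte and 1 neuron markers measured, 0 reached 0.2 with the mean of the members in both cultures. Markers of endothelial cells, microglia, erythroid and mural cells were not analysed here.

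Cells were then split by a UMI of Dcx, Pdgfra or Sox10, a choice made after these negative values were seen, so that lower enzyme levels in such cells restate them and are a description. Such cells made up 16.2% of culture 1 (934 cells, median 15858 UMIs) and 3.49% of culture 2 (246 cells, median 16562 UMIs). Ldha had a mean of 2.50 in the 422 Dcx cells of culture 1 against 3.45 in the 4814 cells with none of the 3 markers, a difference of -0.95. In culture 2 the difference was -0.89, with 110 Dcx cells and 6811 cells with none. The 504 Pdgfra cells of culture 1 and the 128 of culture 2 had Ldha lower by 0.69 and 0.60 on the log2 scale, and the 245 and 53 Sox10 cells by 0.79 and 0.83. The difference in Ldha was of like size in both cultures for each marker. Eno1 was lower by 0.88 in Dcx cells of culture 1 and by 0.41 in culture 2. Cells with a UMI of Pax6 had Ldha means of 3.44 and 3.11, and cells with a UMI of S100b 3.34 and 3.08, against 3.45 and 3.18 in the cells with none of the 3. With cells of 10000 to 15000 UMIs alone, the Ldha means were 2.95 and 3.23 for Pax6 and 2.57 and 3.28 for S100b, against 3.09 and 3.29 with none, so that in culture 1 S100b cells were low as well. Over cells with any of the 3 markers, the differences were -0.77 and -0.69 for Ldha, -0.72 and -0.32 for Eno1, -0.26 and -0.24 for Pkm, -0.20 and -0.15 for Pgk1 and -0.39 and -0.39 for Atp5b. Bnip3 was detected in 19.9% of the marker cells of culture 1 against 26.5% of those with none, and in 17.1% against 16.6% in culture 2. Slc2a1 was detected in 11.8% against 16.95% in culture 1 and 8.94% against 7.90% in culture 2, and Pdk1 in 5.78% against 5.84% and 6.504% against 5.17%. The cells with none had medians of 19847 and 14609 UMIs, and the part of depth in these shares was not tested. With cells of 10000 to 15000 UMIs alone, Ldha was lower by 0.64 in 284 marker cells of culture 1 and by 0.62 in 69 of culture 2, Eno1 by 0.63 and 0.21, Pkm by 0.18 and 0.18, and Pgk1 by 0.10 and 0.00068. Ldha, Eno1 and Pkm kept most of their difference at this depth in both cultures, while Pgk1 had almost none left in culture 2. A UMI of a marker does not make a cell type, a doublet may carry one, and their part in these differences was not tested.

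**Figure D5:**
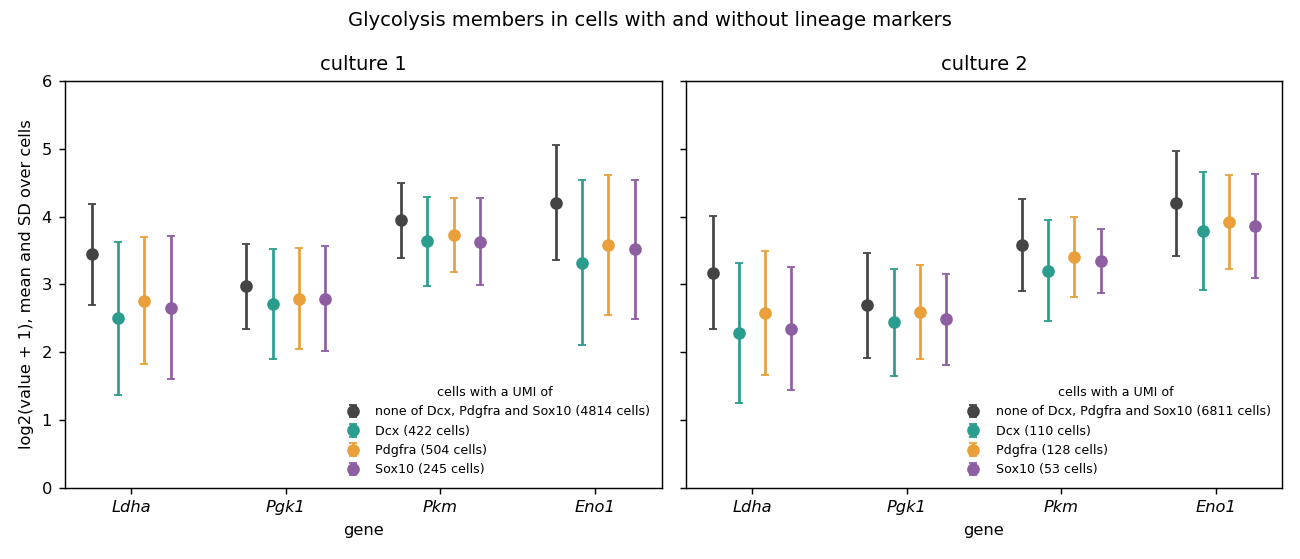
Log2(value + 1) of Ldha, Pgk1, Pkm and Eno1 (y axis, mean and SD over cells) in cells with no UMI of Dcx, Pdgfra and Sox10 and in cells with a UMI of each, for culture 1 (left) and culture 2 (right). Ldha sits at 2.50 in Dcx cells of culture 1 against 3.45 in cells with none, and the SDs overlap.

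Without the marker cells, r with the other 6 genes was 0.285 and 0.286 for Ldha and 0.301 and 0.325 for Eno1, 0.197 and 0.277 for Pkm and 0.183 and 0.207 for Pgk1, so 2 of 7 genes reached 0.2 in both cultures, where 0.0844% of the other genes did. The mean r of the 6 enzyme pairs was then 0.193 in culture 1 and 0.241 in culture 2.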

How the data were processed

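Single-cell RNA-seq with the 10x Chromium 3′ kit was carried out on 2 cultures. Per the methods, the authors counted spliced reads with Alevin (Salmon 1.3.0) on GRCm38, removed cells with outlying depth, gene number, mitochondrial share or doublet score, and normalized by library size. Expression was deposited by the authors as a depth-normalized signal, not in logs. Total UMIs per cell are estimated counts that the authors deposited, and the angle of each cell in the cycle, with its stage calls, is a further value the authors deposited. The origin of the step per gene and culture is not given in the sources used here, and no count model was used.

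Values were read as log2(value + 1) within each culture, with no further cell filter or doublet caller. R2 comes from 2 harmonics, loess from degree 2 and a span of 0.3 on data tripled around the circle, and partial r from residuals on log2 total UMIs, its square and the harmonics. Expected shares at 10000 UMIs assume that each recovered UMI is drawn at random, for steps with a fit of at least 0.8. Cells were grouped by the number of hypoxia response genes detected in place of bins of their mean, since most cells had none. Both functions were tested on simulated data. Python 3.11.15, numpy 2.4.6, scipy 1.17.1, pandas 2.3.3 and R 4.3.3 were used, and gene positions are from GENCODE vM21, while the authors used a later release. The members, gene lists and thresholds were chosen with earlier results of these data known. The genes named outside the members are the 10 highest and 3 lowest by r for each group, the likest gene of each member, and list genes that passed or define a list. Alternatives changed thresholds, scale, harmonics, depth terms, cells and cultures.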

Additional observations from a re-analysis of the deposited data

How the results depend on the processing

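With 2 cultures of 1 condition, the spread between replicates is known only as the difference of the cultures. No paired analysis was possible because there is 1 group. Depth limits Bnip3, Slc2a1 and Pdk1 most. The number of members that vary with the position was 1 (Pkm) at an R2 threshold of 0.02, and 0 under the other settings, a fit without either culture included. The number co-expressed with the other members was 4 in the main setting, 1 (Eno1) at a threshold of r of 0.3, 0 with depth and position taken out, and 2 in cells with no UMI of Dcx, Pdgfra or Sox10, a setting chosen after seeing the data. Spearman's rho and linear values gave 3 each, Pgk1 being the enzyme lost. The mean r over all 21 pairs was 0.0829, 0.0529 with depth and position taken out and 0.238 for the enzymes alone, also chosen after seeing the data. With 1 culture left out it ranged from 0.0756 to 0.0901, and r of the enzyme and hypoxia means from 0.0302 to 0.101. List genes that follow the members numbered 4, or 13 and 1 at thresholds of 0.1 and 0.3, 1 with depth and position taken out, and from 4 to 22 with 1 culture left out, 22 without culture 2.

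The loess maximum, in units of π and as the mean of the cultures, depended on the span. In the main setting the cultures differed most for Eno1, with 1.78 in culture 1 and 0.265 in culture 2. Ldha had 0.615 and 0.29, so that neither culture peaked at its mean, and Slc2a1 had 0.585 and 0.93. At a span of 0.1 the maximum moved to 1.68 for Ldha (from 0.453), 1.95 for Pgk1 (from 1.84), 0.283 for Pkm (from 0.458, as the mean of 1.98 in culture 1 and 0.59 in culture 2, so that neither culture peaked there), 0.0025 for Bnip3 (from 0.153) and 0.105 for Pdk1 (from 0.19). At a span of 0.5 it was 0.2 for Pgk1 and 0.253 for Pkm, and on linear values 1.91 for Pgk1 and 0.235 for Pkm. The causes were not tested.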

Other observations

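Several genes followed the enzymes differently in the cultures, given as values and picked after they were seen. Mt3 had r with the mean of the enzymes of 0.513 in culture 1 and -0.0146 in culture 2. Mif, a cytokine gene of the hypoxia response list, had r of -0.188 and 0.141, and Bnip3l, a relative of Bnip3 that also removes mitochondria, -0.138 and 0.101. Igfbp2 and Basp1 moved the same way in both cultures, with a wider range in culture 1. Igfbp2, a secreted binding protein of insulin-like growth factors, went from a mean log2(value + 1) of 2.90 in the fifth of cells with the lowest enzyme mean to 5.02 in the highest in culture 1, and from 3.72 to 4.40 in culture 2. Basp1, a gene of growing axons, went from 3.38 to 1.39 and from 2.56 to 1.98. The median depth of the lowest and the highest group was 13799 and 21401 UMIs in culture 1 and 14616 and 14052 UMIs in culture 2, and its part was not tested.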
